A study of Mus musculus with 2 samples.

Results

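The cytosolic chaperonin CCT, also called TRiC, was followed through its 8 subunit genes in mature mouse oocytes: Tcp1, Cct2, Cct3, Cct4, Cct5, Cct6a, Cct7 and Cct8. The members were taken by gene symbol from the deposited table, which lists 36227 Ensembl genes and gives counts for 18364 of them, and all 8 had counts. MII oocytes, arrested in meiosis II and ovulated naturally by ICR females, were compared between young mothers of 3 months and aged mothers of 12 months. Each age was 1 library, a single lysate of 18 oocytes pooled over 6 females at 3 oocytes each. The study, whose title concerns BubR1 and aneuploidy in ageing oocytes, used the libraries to ask how maternal age alters oocyte mRNA. The labels name no allele, transgene or drug for either library. With 1 pool per age there is no replicate check. Differences are therefore described by size, without p-values, and 95% intervals cover counting error only. These intervals treat every read as independent. The cDNA was amplified by PCR, in 18 and then 14 cycles, without molecular identifiers, so the intervals may be too narrow.

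CCT is a barrel of stacked rings in which each of the 8 related subunits holds a fixed place, so a working ring needs all of them. It encloses newly made proteins and uses ATP to let them fold. Actin and tubulin depend on it, as do WD-repeat proteins such as Cdc20, an activator of the anaphase-promoting complex. An MII oocyte no longer transcribes its genome to any large degree, and its mRNA is a store laid down during growth. The subunits differ in how they use ATP: those of Tcp1, Cct2, Cct4 and Cct5 bind it strongly and lie together on the ring, and those of Cct3, Cct6a, Cct7 and Cct8 bind it weakly on the opposite side.

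Members at the extremes of the comparison are introduced by their upstream sequence. Cct8 and Cct7 had the largest ratios of aged over young, and Cct5 had the lowest among members with enough counts. The lines give 250 bases before the annotated start of each, from RefSeq on GRCm38.p6, read 5′ to 3′ in the direction of transcription: Cct8 at chr16:87495870-87496119 (minus strand), Cct7 at chr6:85451255-85451504 (plus strand) and Cct5 at chr15:31601847-31602096 (minus strand). Capitals mark the motifs searched on both strands: the CCAAT box (CCAAT), the GC box (GGGCGG), an Ets site (CCGGAAGT) and paired heat shock half-sites (GAANNTTC and TTCNNGAA, each its own reverse complement). No marked match overlaps another.
Cct8: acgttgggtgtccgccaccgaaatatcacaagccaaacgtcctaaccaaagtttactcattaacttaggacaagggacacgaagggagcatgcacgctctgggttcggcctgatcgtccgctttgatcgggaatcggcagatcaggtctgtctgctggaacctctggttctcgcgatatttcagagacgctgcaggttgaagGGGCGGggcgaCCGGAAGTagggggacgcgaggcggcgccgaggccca
Cct7: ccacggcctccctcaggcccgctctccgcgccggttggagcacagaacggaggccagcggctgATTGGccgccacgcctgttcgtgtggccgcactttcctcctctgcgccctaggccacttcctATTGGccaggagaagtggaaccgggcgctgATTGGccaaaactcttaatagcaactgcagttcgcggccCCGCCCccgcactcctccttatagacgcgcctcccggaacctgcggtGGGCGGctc
Cct5: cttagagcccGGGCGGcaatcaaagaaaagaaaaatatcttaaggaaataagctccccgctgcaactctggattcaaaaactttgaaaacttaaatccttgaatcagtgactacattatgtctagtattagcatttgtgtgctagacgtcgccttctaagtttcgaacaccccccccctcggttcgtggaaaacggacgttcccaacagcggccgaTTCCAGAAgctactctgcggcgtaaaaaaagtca

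The RefSeq table held 9 windows for 7 of the 8 members, with 2 each for Cct2 and Cct5 and none used for Cct4. A GC box was found in 8 of the 9 windows and in 32.7% of 32851 windows of all genes. A CCAAT box was found in 4, those of Tcp1, Cct3, Cct6a and Cct7, with 3 matches in Cct7. It occurred in 33.8% of all windows. The heat shock half-site pairs were found in 1 window each, GAANNTTC in a Cct2 window and TTCNNGAA in the printed Cct5 window, and in 6.69% and 7.17% of all windows. The Ets site was in the Cct8 window alone among members and in 2.88% of all windows. A match describes the letters only, and factor binding was not measured.

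Of the 8 members, 7 averaged 20 counts or more, the floor used for ratios, and Cct6a did not. Summed over the 8 genes, CCT took 153.5 CPM (counts per 1000000 counts of the library) from young oocytes, or 2989 counts, and 380.1 CPM from aged oocytes, or 7069 counts. The sum was 2.48-fold higher in the aged library (95% interval 2.37 to 2.59). Cct8 alone gave 44.8% of the aged sum. Without Cct8 the sum was 126.4 CPM from young and 209.7 CPM from aged oocytes, 1.66-fold higher (1.58 to 1.75). CPM is a share of the library, so the amount of RNA in an oocyte was not measured.

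**Figure D1:**
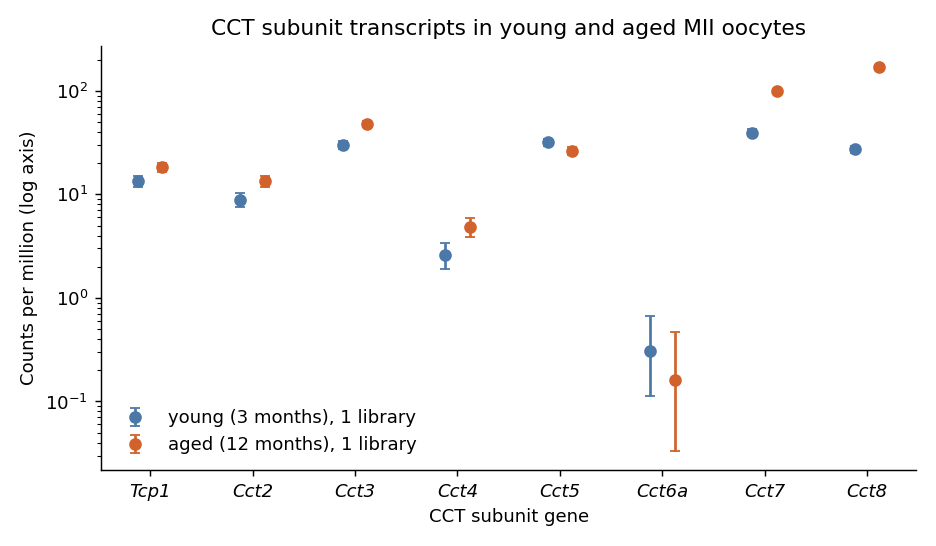
CPM of the 8 CCT subunit genes (log axis) for both libraries, young and aged, 1 point per library, with exact 95% Poisson intervals for counting error. Cct8 lies at 27.1 CPM from young and 170.5 CPM from aged oocytes, Cct5 is the abundant member that lies lower in the aged library, and Cct6a lies under 1 CPM in both.

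Among the subunits that bind ATP strongly, Tcp1, the gene for CCT-alpha (ENSMUSG00000068039, chromosome 17), had 261 counts or 13.4 CPM from young oocytes and 338 counts or 18.2 CPM from aged oocytes. Cct2, for CCT-beta (ENSMUSG00000034024, chromosome 10), had 173 counts, 8.88 CPM, and 248 counts, 13.3 CPM. Cct4, for CCT-delta (ENSMUSG00000007739, chromosome 11), had 50 counts, 2.57 CPM, and 90 counts, 4.84 CPM. All of these were somewhat higher in the aged library: Tcp1 1.36-fold (1.15 to 1.6), Cct2 1.5-fold (1.23 to 1.83) and Cct4 1.88-fold, with the wide interval of a low count (1.32 to 2.72). Cct5, for CCT-epsilon (ENSMUSG00000022234, chromosome 15), went the other way, with 618 counts, 31.7 CPM, from young oocytes and 490 counts, 26.3 CPM, from aged oocytes. It was 1.2-fold lower in the aged library (1.07 to 1.36), the 1 member above the floor with that direction.

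The subunits that bind ATP weakly included both members with the largest ratios. Cct3, for CCT-gamma (ENSMUSG00000001416, chromosome 3), had 585 counts, 30.04 CPM, from young oocytes and 884 counts, 47.5 CPM, from aged oocytes, 1.58-fold higher (1.42 to 1.76). Cct7, for CCT-eta (ENSMUSG00000030007, chromosome 6), had 768 counts, 39.4 CPM, and 1846 counts, 99.3 CPM, 2.52-fold higher (2.31 to 2.74). Cct8, for CCT-theta (ENSMUSG00000025613, chromosome 16), had 528 counts, 27.1 CPM, and 3170 counts, 170.5 CPM, 6.29-fold higher (5.73 to 6.91). Cct7 and Cct8 encode neighbours on the ring, but a link of the ratios to ring position or ATP binding was not tested. Cct6a, for CCT-zeta (ENSMUSG00000029447, chromosome 5), was almost without reads, with 6 counts from young and 3 from aged oocytes, 0.308 and 0.161 CPM. Its ratio of 0.524 had an interval of 0.0847 to 2.45, so no difference was detectable at this depth. Its paralogue Cct6b, which is known from testis, had no count in either library.

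Of the 7 members above the floor, 2 (Cct7 and Cct8) were 2-fold or more higher in the aged library, as were 27.9% of all 10211 genes above the floor, so the count of members is close to the background. None of the 7 was 2-fold or more lower, against 10.6% of all genes. The counting interval lay wholly above 2-fold for Cct7 and Cct8, and for 18.0% of all genes. The median log2 ratio of the 7 members was 0.66, and that of all genes was 0.43, with quartiles of −0.28 and 1.09.

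By their log2 ratios, Cct8 at 2.65 exceeded 97.4% of genes, with 266 genes higher, and Cct7 at 1.33 exceeded 81.7%. Cct4 at 0.91 exceeded 69.1%, Cct3 at 0.66 59.4%, Cct2 at 0.59 56.7% and Tcp1 at 0.44 50.5%. Cct5, at −0.27, exceeded 25.2%, so these 5 lay between the quartiles of all genes. After centring on the median gene, Cct8 (2.23) was the 1 member still 2-fold or more higher, against 16.0% of all genes, Cct7 stood at 0.91, Tcp1 at 0.01 and Cct5 at −0.69.

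**Figure D2:**
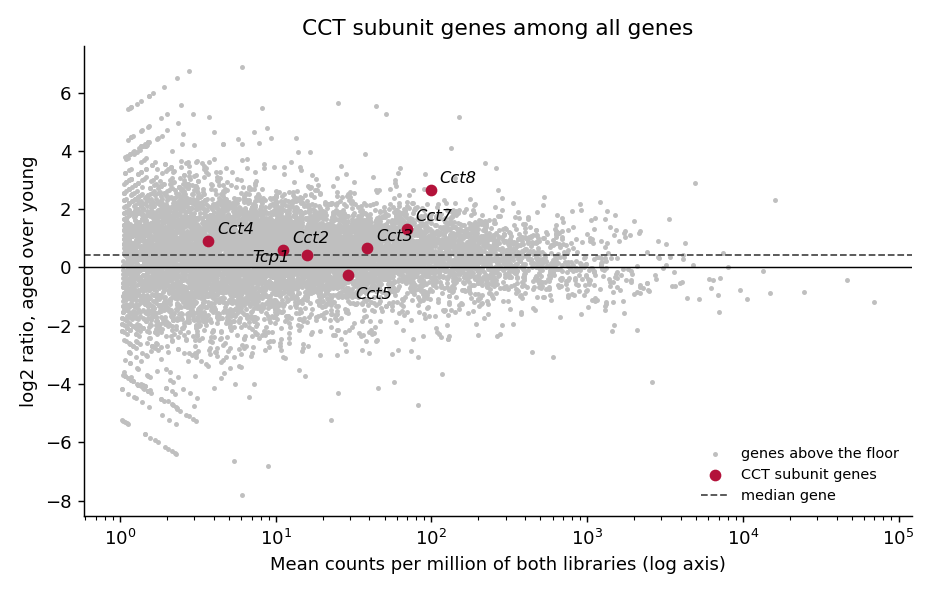
Mean CPM of both libraries (log axis) against the log2 ratio of aged over young for the 10211 genes above the floor, with the 7 CCT subunit genes above the floor in red and the median gene as a dashed line. Cct8, at 2.65, has a higher ratio than 97.4% of the genes, and the other members range from Cct5 at −0.27 to Cct7 at 1.33.

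The share of genes lying higher or lower depends on how the libraries are scaled. Of genes 2-fold or more apart, 72.5% were higher in the aged library with library totals, 51.3% with the trimmed mean of M-values (TMM), 52.5% with the median of ratios, 48.0% with centring on the median gene and 57.2% with totals that leave out the 100 most abundant genes. After the length and GC correction described next it was 47.7%. TMM lowered every log2 ratio by 0.37. Cct8 was 2-fold or more higher with each of these scalings and after that correction. Cct7 was so with library totals, with totals that leave out the abundant genes and after that correction, and not with TMM, the median of ratios or centring.

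The median ratio of genes differed with base composition, and so do the members' transcripts. The Cct8 transcript, with 43.3% G and C, belongs to the second lowest decile of genes by GC content, whose median log2 ratio was 0.87. That of Cct7, with 54.0%, belongs to the eighth decile, with a median of 0.09. When each ratio was reduced by the median of genes of like length and GC content, Cct8 stood at 1.75, Cct7 at 1.45, Cct4 at 0.20, Cct3 at 0.0053, Cct2 at −0.11, Tcp1 at −0.12 and Cct5 at −0.74. Cct7 and Cct8 were thus both 2-fold or more higher with this correction, as were 1347 of the 9902 genes it covered. They lay closer together, while the signs of Cct2 and Tcp1 turned.

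**Figure D3:**
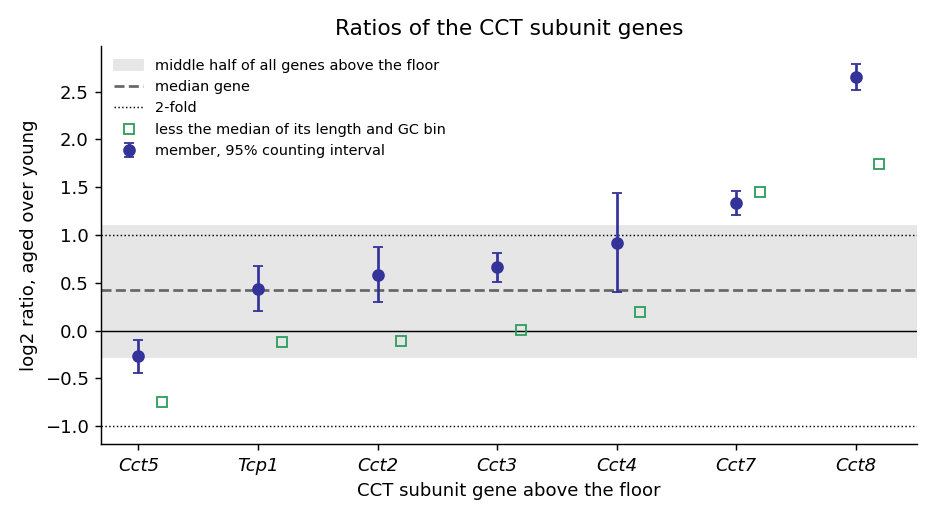
log2 ratio of aged over young for the 7 CCT subunit genes above the floor, ordered by size, with exact 95% counting intervals (filled points) and after subtraction of the median of their length and GC bin (open squares). The grey band is the interquartile range of all genes, the dashed line the median gene at 0.43 and the dotted lines 2-fold; Cct8 at 2.65 and Cct7 at 1.33 lie above the band with their intervals, and Cct4 and Cct5 reach beyond it only with their intervals.

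Ratios between members do not depend on the scaling of the libraries, but they do change with the length and GC correction. The differences given here are without that correction, after which Cct8 stood at 1.75, Cct7 at 1.45 and Cct4 at 0.20. Of 21 pairs among the 7 members, 14 differed in ratio by more than their 95% counting interval. Cct8 differed from all of the other 6, by 1.32 on the log2 scale from Cct7 (1.14 to 1.504) and by 2.92 from Cct5 (2.70 to 3.14). Cct5 lay below each of the others, and its nearest neighbour was Tcp1, at a distance of 0.71 (0.41 to 1.00). Tcp1, Cct2, Cct3 and Cct4 could not be told apart from each other within counting error, and neither could Cct4 and Cct7, whose difference was 0.42 (−0.13 to 0.95).

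Cct8 made up 17.7% of the summed counts of the 8 genes from young oocytes (exact Clopper-Pearson interval 16.3 to 19.1) and 44.8% from aged oocytes (43.7 to 46.0). Cct5 made up 20.7% (19.2 to 22.2) and 6.93% (6.35 to 7.55), and Cct3 stood at 19.6% and 12.5%. The share of Cct7 was 25.7% (24.1 to 27.3) and 26.1% (25.1 to 27.1), with overlapping intervals. Tcp1 had 8.73% and 4.78%, Cct2 5.79% and 3.51%, Cct4 1.67% and 1.27%, and Cct6a 0.201% and 0.0424%. As shares sum to the whole, the larger share of Cct8 lowers the others.

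**Figure D4:**
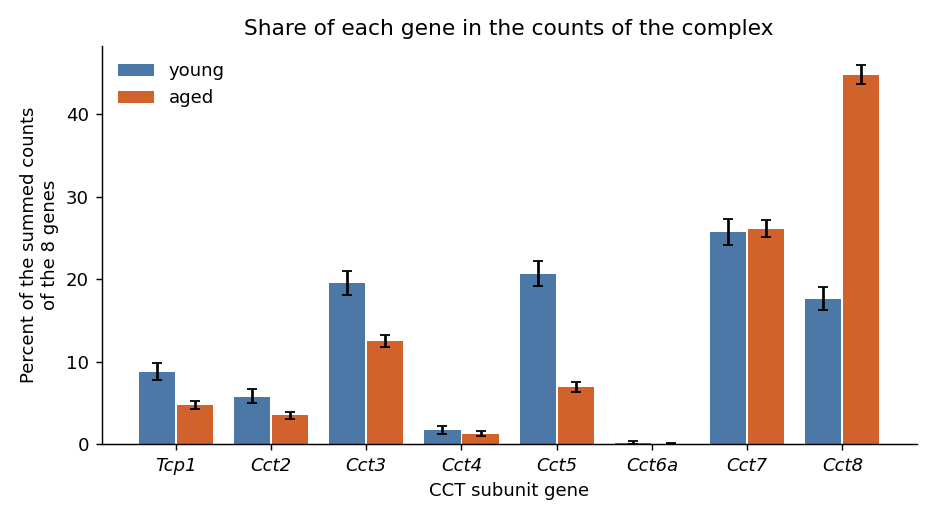
Percent of the summed counts of the 8 CCT subunit genes held by each gene, in the young (2989 counts) and aged (7069 counts) libraries, with exact 95% binomial intervals. Cct8 goes from 17.7% to 44.8%, Cct7 stands at 25.7% and 26.1%, and the other 6 genes hold smaller shares in the aged library.

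Although the protein complex holds its subunits in equal number, the transcript levels were far from equal in either library. Lengths were those of the longest protein-coding transcript, or for Cct6a of the longest transcript of another kind. Per kilobase, the young library held most of Cct5, with 17.1 CPM, followed by Cct7 with 16.2 and Cct3 with 15.2. Neighbours among these did not differ beyond counting error. Cct8 followed with 11.3, then Tcp1 with 5.48 and Cct2 with 4.53, a pair not separated by its interval, Cct4 with 1.03 and Cct6a with 0.126. In the aged library Cct8 came first, with 71.2 CPM per kilobase, before Cct7 with 40.7, Cct3 with 24.0, Cct5 with 14.2, Tcp1 with 7.43, Cct2 with 6.81, Cct4 with 1.95 and Cct6a with 0.0657. Each step in that order exceeded counting error except the one from Tcp1 to Cct2.

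Among the 7 members above the floor the levels per kilobase spanned 16.6-fold for young and 36.5-fold for aged oocytes. Cct8 moved from the fourth rank to the first and Cct5 from the first to the fourth, while Cct7, Cct3, Tcp1, Cct2, Cct4 and Cct6a kept their ranks. Against all genes above the floor, Cct8 stood at percentile 72.5 per kilobase for young and 90.8 for aged oocytes, Cct4 at 25.9 and 33.1, and Cct6a at 2.12 and 0.727. The cDNA was primed at the poly(A) tail, so reads may not spread evenly over a transcript, and levels per length carry that limit. Tail length was not measured, and its part in the counts of either library was not tested.

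Several members share exon sequence with another gene, and whether strand was used in counting was not found in the sources used here. By GENCODE release 21, on GRCm38, the 3′ end of Cct8 shares 192 exon bases with Usp16, a deubiquitinase gene on the opposite strand. Usp16 had 196 counts from young and 305 from aged oocytes, a log2 ratio of 0.70, beside 528 and 3170 for Cct8. The 5′ end of Cct7 shares 214 exon bases with Pradc1, on the opposite strand, which had 366 and 309 counts, a log2 ratio of −0.18. Tcp1 shares 571 exon bases with Acat3 at its 3′ end (35 and 67 counts) and 141 with the mitochondrial ribosomal protein gene Mrpl18 at its 5′ end (1168 and 1583 counts). Acat2 is 98.7% identical to Tcp1 over 445 bases, with 6 and 59 counts. Cct6a shares 452 exon bases with Psph, which had 204 and 133 counts, and the transcript used for the length of Cct6a is not annotated as protein-coding in that release.

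Small nucleolar RNA genes lie within Tcp1 and Cct6a. Of the 3 with counts, Snora20 had 1 count from young and 70 from aged oocytes, Gm26130, within Tcp1 as well, 0 and 22, and Gm23245, within Cct6a, 2 and 25. How reads were divided between these and their hosts is not known. Near-identical copies elsewhere (at least 90% identity over 200 bases) were few: Cct3-ps1 with 5 and 0 counts for Cct3 and Gm5380 with 16 and 55 counts for Cct7. No such copy was found for Cct2, Cct4, Cct5, Cct6a or Cct8. The 4 members that share no exon base with another gene, Cct2, Cct3, Cct4 and Cct5, had 1426 counts from young and 1712 from aged oocytes, a sum 1.26-fold higher (1.17 to 1.35), with a log2 ratio of 0.33, or −0.10 relative to the median gene.

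Library identity was checked with marker genes. All 10 oocyte markers were above the floor, together 163809 CPM from young and 91218 CPM from aged oocytes, with 1 of them 2-fold or more higher (27.9% of all genes) and 3 lower (10.6% of all genes). The 3 with the largest difference were Figla (206 and 25 counts), Gdf9 (1891007 and 795892) and Zp1 (8394 and 3617). Of 15 markers of cumulus and granulosa cells, which surround the oocyte, 9 had counts, together 27.3 and 57.9 CPM. The aromatase gene Cyp19a1 gave 22.4 and 56.8 CPM of these. Vim had 51 counts from young oocytes and 0 from aged oocytes, Cyp11a1 27 and 1, Inha 14 and 0, and Fshr 0 and 16. Has2 had 0 and 2 counts, Ptx3 1 and 1, Tnfaip6 2 and 1, and Ptgs2 1 and 0. Amh, Amhr2, Foxl2, Inhba, Lhcgr and Star had none. Of these markers only Cyp19a1 and Vim were above the floor, and the others were named after their values were seen. Somatic cells also express CCT genes, and the part of such cells in these values was not tested.

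Partners that deliver proteins to CCT were next compared. Ratios of this and the following gene lists are without the length and GC correction. Prefoldin is a jellyfish-shaped complex of 6 subunits that hands unfolded actin and tubulin to CCT, and all 6 genes were above the floor, 3 of them 2-fold or more higher in the aged library (27.9% of all genes) and 1 lower (10.6% of all genes). Pfdn2 had 348 counts from young and 3036 from aged oocytes, 17.9 and 163.2 CPM, 9.14-fold higher (8.17 to 10.2), a larger ratio than that of Cct8. Vbp1, the prefoldin subunit that binds the von Hippel-Lindau protein, had 47 and 142 counts, 3.16-fold higher (2.26 to 4.5). Pfdn5 was 2.35-fold higher with 2232 and 5008 counts, Pfdn4 1.51-fold with 4727 and 6827, and Pfdn1 1.47-fold with 665 and 935. Pfdn6 was 2.57-fold lower (1.66 to 4.08), with 78 and 29 counts. The 6 log2 ratios ran from −1.36 to 3.19, with a median of 0.91 beside 0.43 for all genes, and 2 were 2-fold or more higher relative to the median gene, as were 16.0% of all genes.

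Phosducin-like co-chaperones bind CCT and modulate folding on it. Of 4 genes in the list 3 were above the floor, 2 of them 2-fold or more higher and none lower, beside 27.9% and 10.6% of all genes, with a median of 1.17. Pdcl had 115 and 292 counts, 2.66-fold higher (2.14 to 3.33), and Txndc9 109 and 235 counts, 2.26-fold higher (1.79 to 2.86). Pdcl3 had 542 and 507 counts, a log2 ratio of −0.03, and Pdcl2 had no counts. Relative to the median gene neither Pdcl nor Txndc9 was 2-fold higher, at 0.99 and 0.75.

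Tubulin-folding cofactors act on tubulin after CCT, and the 7 genes listed for them and their relatives were all above the floor. Of these 2 were 2-fold or more higher, a share near the 27.9% of all genes, and none lower (10.6% of all genes), with a median of 0.32. Tbca, which holds beta-tubulin, had 219 and 761 counts, 3.64-fold higher (3.13 to 4.25). Tbcel, a relative of cofactor E known to take tubulin dimers apart, had 2 counts from young and 50 from aged oocytes, a ratio of 26.2 with an interval of 6.88 to 222.1. Tbcel reached the floor only through its aged counts, so its place among the higher genes is partly set by the floor. Tbcb (2806 and 2242 counts) stood at −0.26, Tbcc (139 and 178) at 0.42, Tbcd (169 and 152) at −0.09, Tbce (52 and 62) at 0.32 and the small GTPase gene Arl2 (388 and 291) at −0.35.

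Genes for proteins that CCT folds formed lists with medians below that of all genes, without the length and GC correction. Whether that correction would change the order of the lists was not tested. Of 17 actin and tubulin genes 12 were above the floor, none 2-fold or more higher (27.9% of all genes) and 2 lower (10.6% of all genes), with a median log2 ratio of −0.24. That median mainly describes tubulin genes. The only actin gene above the floor was Actb, with 98 and 107 counts and a log2 ratio of 0.19. The other actin gene, Actg1, had 4 and 4 counts. Both were named after their values were seen. Tuba4a had 187 and 43 counts, 4.15-fold lower (2.97 to 5.93), and Tubb3 15692 and 6905 counts, 2.17-fold lower (2.11 to 2.23). Tubb2a, with 1706 and 3180 counts, was 1.95-fold higher (1.84 to 2.07). Tubulin genes have close copies, so counts of single isotypes are uncertain. Of 14 genes of other clients and candidate clients, chiefly WD-repeat proteins and cell-cycle regulators, 12 were above the floor, with 2 higher and 2 lower, beside the same 27.9% and 10.6%, and a median of −0.12. Rptor, of the TOR complex, was 2.69-fold lower (155 and 55 counts), Fzr1, an activator of the anaphase-promoting complex, 2.51-fold lower (1826 and 696 counts) and Bub3, a WD-repeat checkpoint gene, 2.37-fold higher (1164 and 2638 counts). Cdc20, named after its values were seen, had 5009 and 3815 counts, a log2 ratio of −0.33.

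**Figure D5:**
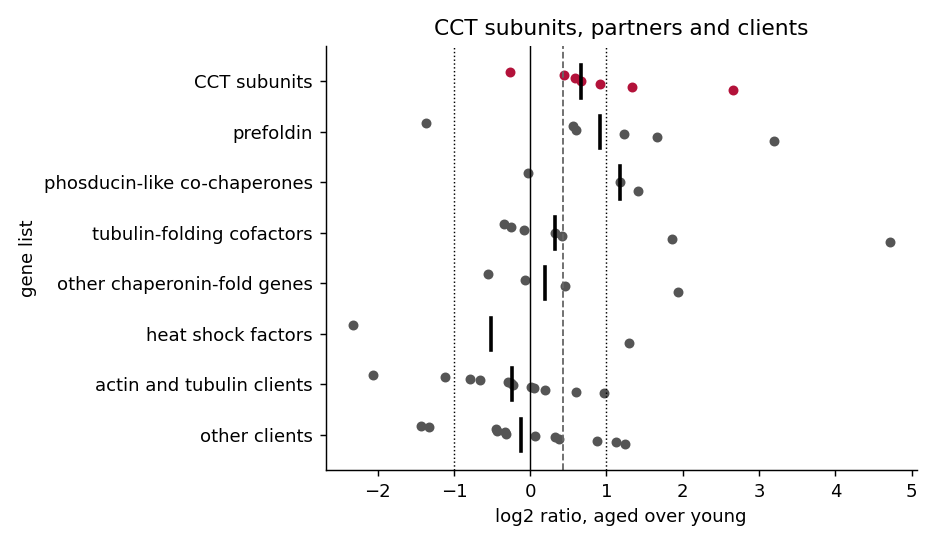
log2 ratio of aged over young for each gene above the floor in 8 lists (points, 1 per gene) with the list's median (bar); the dashed line is the median gene at 0.43 and dotted lines mark 2-fold. CCT subunits, prefoldin and phosducin-like co-chaperones (3 genes) have medians of 0.66, 0.91 and 1.17, and the lists of clients have medians of −0.24 and −0.12. Tubulin-folding cofactors, other chaperonin-fold genes and heat shock factors (2 genes) have medians of 0.32, 0.20 and −0.51. No length and GC correction was applied to the values shown.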

How the data were processed

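Counts per Ensembl gene were used as deposited by the authors, whole numbers with a total of 19475110 (young) and 18597656 (aged). Per the labels' protocols, mRNA was reverse transcribed from an oligo(dT) primer, amplified and sequenced on a SOLiD instrument, without molecular identifiers. The genome build was mm9 per the submitters' processing notes, while the sources used here name no aligner, counting program or annotation release. The authors' deposited log2 fold changes, young over aged, matched the ratios recomputed for the 8 members within 4e-15 after a change of sign. Symbols, lengths and GC content came from GENCODE mouse release 21 on GRCm38, which named 93.7% of genes with counts.

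Ratios are aged over young CPM, with 3 counts in place of a 0, for the 10211 genes that average 20 counts or more. A count of 0 allows up to 0.154 CPM in the young and 0.161 CPM in the aged library. Intervals are exact at 95%, Clopper-Pearson for ratios, shares and steps between levels, and Poisson for levels. Differences in ratio between members have the exact conditional interval of an odds ratio. The ratio and interval code was tested on simulated data. Length and GC correction used 10 by 10 bins of 9902 genes. Alternatives were TMM scaling (edgeR 4.0.16, used for nothing else), the median of ratios, centring, totals without the 100 most abundant genes, 5 counts added, that correction, other floors, and leaving out members that overlap another gene. Leaving out Cct8 was added after the data were seen. Copies were found with BLAST+ 2.17.0, and other work used Python 3.11.15, scipy 1.17.1 and pandas 2.3.3.

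The members and the lists (prefoldin, phosducin-like co-chaperones, tubulin-folding cofactors, other chaperonin-fold genes, heat shock factors, clients, and oocyte and cumulus markers) were chosen with earlier results of these data known. Named are the 8 members, Cct6b, genes overlapping a member, every gene of a list of up to 7, and of longer lists up to 3 genes above the floor with the largest difference. Outside this rule, Cdc20, Actb, Actg1 and the cumulus markers below the floor or without counts were named after their values were seen. With 2 libraries, no likeness of pattern between genes was measured.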

Additional observations from a re-analysis of the deposited data

How the results depend on the processing

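With 1 library per age nothing here estimates the spread between animals or pools, and depth limits Cct6a and Cct4 most. The summed CCT log2 ratio, 1.31, was 0.93 with TMM, 0.95 with the median of ratios, 0.88 centred on the median gene and 1.02 with totals without the 100 most abundant genes. It was 0.73 without Cct8, and 0.33 without members that overlap another gene. The median of members, 0.66, was 0.29, 0.31, 0.24 and 0.38 with these scalings in the same order, and 0.0053 after the length and GC correction. The number of members 2-fold or more higher, 2, was 1 with TMM, 1 with the median of ratios, 1 with centring, 1 without Cct8 and 0 without the overlapping members (fewer members by construction). No member above the floor was 2-fold or more lower under any of these alternatives. Over the reported value and 6 alternatives Cct8 ranged from 1.75 to 2.65 and Cct7 from 0.91 to 1.45; Tcp1 and Cct2 changed sign with the length and GC correction alone. Over all genes, 1757 were higher and 1668 lower with TMM, 1802 and 1633 with the median of ratios, 1633 and 1766 with centring, 1347 and 1475 with the length and GC correction, 1727 and 496 with a floor of 100 counts and 4202 and 2019 with no floor, against 2844 and 1081. For the length and GC correction the cause of the difference was not tested.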

Other observations

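Other genes of the chaperonin fold gave these values. Of 6 such genes 4 were above the floor, with a median log2 ratio of 0.20, 1 of them 2-fold or more higher and none lower, beside 27.9% and 10.6% of all genes. The mitochondrial chaperonin is built from Hspd1, its barrel, and Hspe1, its lid. Hspd1 had 14 counts from young and 51 from aged oocytes, 3.81-fold higher (2.08 to 7.46), while Hspe1 had 492 and 319 counts and was 1.47-fold lower (1.28 to 1.7). Hspd1, the gene counted as higher, reached the floor only through its aged counts. Among the chaperonin-like genes of Bardet-Biedl syndrome, which help to assemble the ciliary BBSome with CCT, Mkks had 348 and 317 counts and a log2 ratio of −0.07, Bbs12 19 and 25 counts and 0.46, and Bbs10 4 and 0 counts.

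The heat shock factor genes, whose products can activate chaperone genes, differed in opposite directions. Hsf1 had 757 counts from young and 144 from aged oocytes, 5.02-fold lower (4.2 to 6.04), and Hsf2 20 and 47 counts, 2.46-fold higher (1.43 to 4.38). What these transcripts mean for the factors' activity was not measured.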
